A study of Mus musculus with 4 samples.

Results

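Cardiac muscle transcripts in single-nucleus RNA-Seq libraries of mouse lung were examined through 9 genes of the heart muscle contractile machinery, Myh6, Tnnt2, Actc1, Tnni3, Myl7, Myl4, Ttn, Sln and Tcap. They were 9 of the 32285 genes counted, matched by symbol, and each symbol matched a single counted gene. The genes were selected on UMI counts of these same libraries, since earlier results in which cardiac muscle transcripts appeared together were known. A barcode, the tag of one droplet, was called positive when it had 1500 or more unique molecular identifiers (UMIs, each one counted RNA molecule) and held UMIs of at least 2 of the 9 genes. That rule kept 516 of 134745 barcodes. Since the rule used these UMIs, the levels of the 9 genes in positive barcodes are a description and were given no test.

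Lungs came from 2 WT mice (C57/BL6J) and 2 VEcad-TRF2DN-Tg mice (Tg), in which the VE-cadherin promoter drives TRF2 in dominant-negative form, a telomere-binding protein, in endothelial cells (ECs). Tg mice were heterozygous on the same C57/BL6J background. The 4 mice were 8 to 9 weeks old and, per the study's methods, male and kept in chronic hypoxia, so hypoxia was shared by both genotypes. The transgene carries a human TERF2 sequence that is not among the genes counted, so the genotype labels could not be checked from it. Nuclei were pelleted from whole lung homogenate without sorting, and each library held 1 mouse.

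Sarcomeres, the contractile units of striated muscle, slide myosin thick filaments along actin thin filaments when calcium released from the sarcoplasmic reticulum binds troponin. Atrial and ventricular cardiomyocytes share most of these proteins but use different myosin light chains, and Myl7, Myl4 and Sln are mainly atrial in the adult mouse. In mice, a sleeve of atrial-like cardiomyocytes surrounds the pulmonary veins well into the lung, so lung tissue can hold cardiac muscle of its own. Among the 9 genes, Myh6 encodes the alpha myosin heavy chain, and Myl7 and Myl4 encode atrial regulatory and essential myosin light chains. Tnnt2, Tnni3 and Actc1 encode cardiac troponin T, cardiac troponin I and cardiac alpha actin of the thin filament. Ttn encodes titin, the giant spring that spans the sarcomere, Tcap encodes the titin cap at the Z-disc, and Sln encodes sarcolipin, an inhibitor of the calcium pump.

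The genes differ in how much pre-mRNA a nucleus can offer for counting, because intron reads were included. On mm10 with the GENCODE M21 annotation, Ttn (ENSMUSG00000051747) spans chr2:76703980-76982547 on the minus strand, which is 278568 bases. Myl7 (ENSMUSG00000020469) spans chr11:5896637-5898782 on the minus strand, only 2146 bases with exons and introns together. The UMIs were not corrected for length, so no order is drawn between the genes. Tnni3 (chr7:4518305-4524229, minus strand) overlaps Dnaaf3, a gene of ciliary dynein assembly on the same strand, by 1297 bases. Ttn, Myh6 and Myl4 are overlapped by counted antisense genes, and Actc1 and Myh6 have close paralogs (Acta1 and Myh7) with which reads could be shared.

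Promoters are shown for Myl7 and Actc1, which had the largest genotype differences among the members with a RefSeq promoter. Each run is the 120 bases before the transcription start, from the RefSeq table on GRCm38.p6, with motif matches in capitals. Myl7 is read from chr11:5898783-5898902 and Actc1 from chr2:114052876-114052995, both on the minus strand. The capitals mark a CArG box, the site of serum response factor, in both promoters, and in Myl7 also the MCAT element CATTCC, the site of TEAD factors.
Myl7: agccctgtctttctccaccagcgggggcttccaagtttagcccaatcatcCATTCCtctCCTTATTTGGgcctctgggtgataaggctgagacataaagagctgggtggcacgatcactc
Actc1: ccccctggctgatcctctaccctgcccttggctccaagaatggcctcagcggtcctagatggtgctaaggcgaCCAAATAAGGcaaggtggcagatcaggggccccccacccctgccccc
RefSeq promoters were found for 7 of the 9 genes, Sln and Tcap having no entry, and the 250 bases before the start were searched on both strands. CArG boxes lay in 2 of the 7 (Actc1 and Myl7) and in 1.62% of 27025 genes with a promoter. CATTCC lay in 3 of the 7 (Myh6, Tnnt2 and Myl7) and in 14.4% of all these genes, and a MEF2 site in Ttn and in 3.42% of all. TATAAA lay in 0 of the 7 and in 14.3% of all these genes. The letters AGATAA, which factors of the Gata family can bind, lay in Tnnt2 and in 11.4% of all. These matches describe letters only.

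Total UMIs per library were 125261739 and 146133943 in WT mice and 128645180 and 182014706 in Tg mice. Between 25269 and 44000 barcodes per mouse had 1500 or more UMIs, with medians of 1860 to 2530. The densest part of the barcode distribution lay at 1340 to 1504 UMIs in WT1, 1687 to 1893 in WT2, 846 to 949 in Tg1 and 1504 to 1687 in Tg2. The same limit thus kept the mode in WT2 and Tg2, touched it in WT1 and lay above it in Tg1, and many of the barcodes kept may hold free RNA instead of a nucleus. Mitochondrial genes took 0.0828% and 0.130% of UMIs in WT mice but 0.321% and 0.383% in Tg mice. Hemoglobin and heme genes of red blood cells (5 genes) stood at 163 and 167 UMIs per 1000000 UMIs of the same barcodes (CPM) in WT mice against 2650 and 2072 in Tg mice. Between 176 and 475 barcode sequences were shared by any 2 libraries, and no positive barcode was shared as positive.

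UMIs of all 9 genes were found in every library. Over barcodes with 1500 or more UMIs, the 9 genes together took 20.7 and 19.3 CPM in WT mice and 44.3 and 32.9 in Tg mice. Barcodes with at least 1 member made up 4.15% and 4.41% in WT mice and 9.94% and 8.89% in Tg mice. Both Tg mice were thus above both WT mice in either measure. Most of this signal was single molecules: barcodes with exactly 1 member and 1 UMI of it numbered 1020, 1543, 2166 and 3521 in WT1, WT2, Tg1 and Tg2, against 62, 127, 130 and 153 with more UMIs of it.

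Among thick filament genes, Myl7 set the Tg mice apart. Myl7 had 95 and 205 UMIs in WT mice and 966 and 1926 in Tg mice, or 1.39 and 1.88 against 12.9 and 13.6 CPM. The groups did not overlap and were each narrow. Myl4, at 2.58 and 1.74 CPM in WT mice and 5.64 and 3.32 in Tg mice, was higher in both Tg mice by a smaller factor. Myh6 stood at 1.28 and 0.805 CPM against 2.41 and 1.45, so the lower Tg mouse was close to the higher WT mouse.

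Thin filament genes did not move as one. Actc1 had 29 and 35 UMIs in WT mice and 160 and 182 in Tg mice, or 0.425 and 0.320 against 2.13 and 1.28 CPM. Tnnt2 lay at 0.894 and 0.631 against 1.97 and 0.957 CPM. Tnni3 lay at 5.51 and 2.47 against 5.13 and 2.64 CPM, so its spread within each genotype exceeded any difference between them. For Actc1 the groups were far apart, for Tnnt2 nearly touching, and for Tnni3 fully overlapping.

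Titin was the gene least tied to genotype. Ttn had 527 and 1167 UMIs in WT mice and 841 and 1132 in Tg mice, or 7.72 and 10.7 against 11.2 and 7.97 CPM. Tcap, whose protein binds the titin end, lay at 0.689 and 0.595 against 1.80 and 1.15 CPM, and Sln at 0.161 and 0.156 against 1.12 and 0.570. Both Tg mice exceeded both WT mice for Tcap and Sln, and the genotypes overlapped for Ttn. How many of all genes separated the genotypes in this way was not counted, so non-overlap of single members is a description. Of the 21018 genes tested below, 5941 had an unadjusted p under 0.05 by edgeR.

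**Figure D1:**
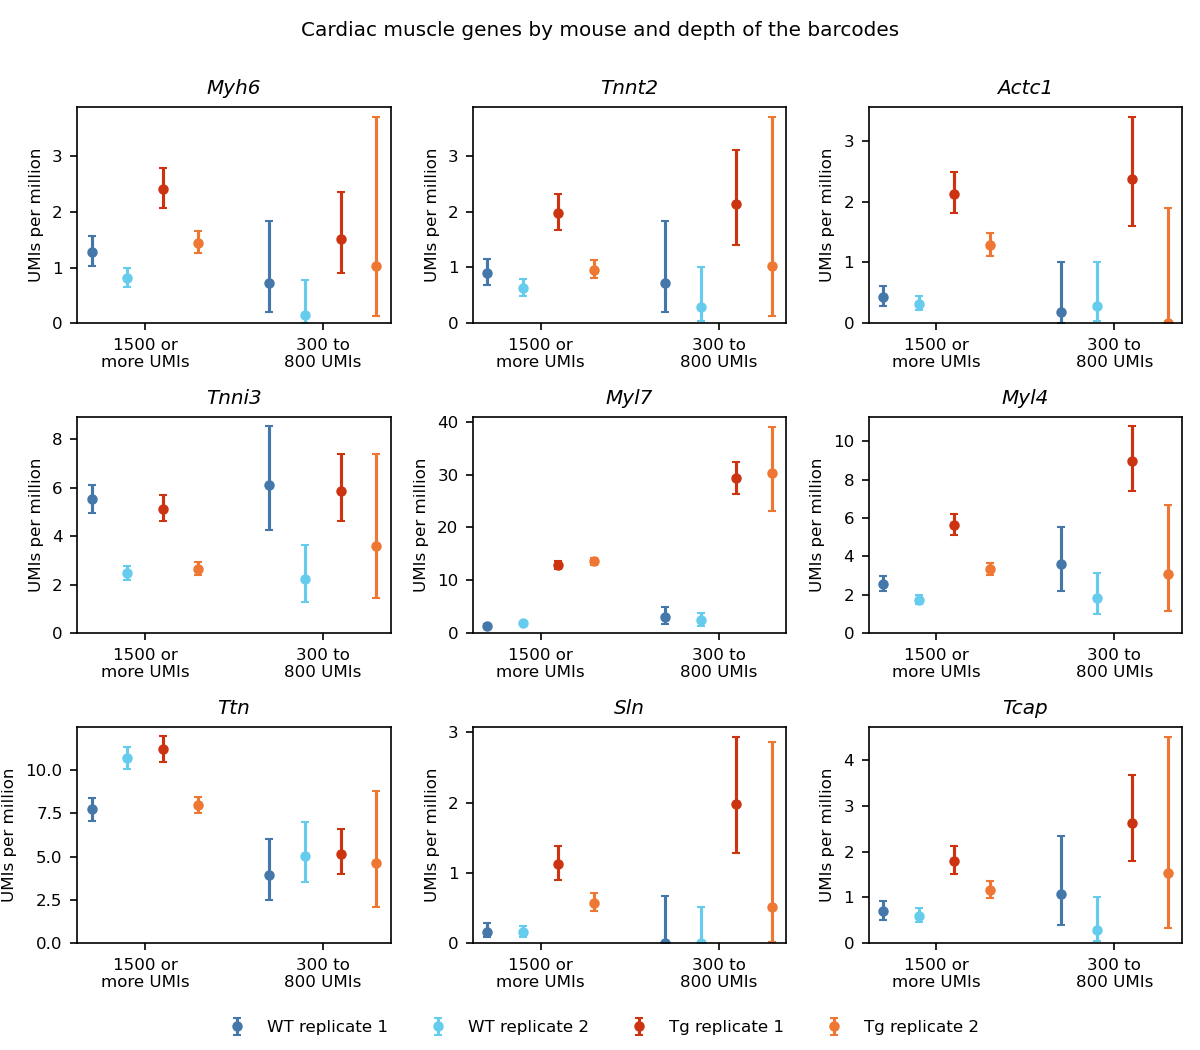
Level of each of the 9 cardiac muscle genes in CPM (linear axis from 0, its own range for each gene), 1 point per mouse, in barcodes with 1500 or more UMIs and in those with 300 to 800 UMIs, with bars for the 95% counting interval. Myl7 stands at 1.39 and 1.88 in WT mice and at 12.9 and 13.6 in Tg mice in the deeper barcodes, while Ttn and Tnni3 overlap between genotypes.

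The genotype difference was tested on UMIs summed per mouse over all barcodes with 1500 or more UMIs, by the quasi-likelihood test of edgeR, adjusted over 21018 genes after Benjamini and Hochberg. Of the 9 members, 1 passed at an adjusted p under 0.05, higher in Tg mice, where 3.88% of all genes tested were called higher, 0.205% lower and 4.08% in either direction (815 genes higher and 43 lower, against 2368 and 911 by DESeq2). That gene was Myl7, with a log2 fold change of 2.96 (SE 0.27, n = 2 mice per genotype, adjusted p = 0.0344 by edgeR). Sln (2.34, SE 0.52, adjusted p = 0.0668 by edgeR) and Actc1 (2.14, SE 0.45, adjusted p = 0.0601 by edgeR) lay just above the threshold, and DESeq2 put both under it (adjusted p of 0.0109 and 0.00147). Of the remaining 6, Tcap, Myl4, Tnnt2 and Myh6 had log2 fold changes of 0.83 to 1.14 with adjusted p of 0.147 to 0.294, Ttn had 0.0029 and Tnni3 -0.10. With 1 mouse left out, Tnnt2 ran from 0.27 to 1.31, Myl4 from 0.56 to 1.32 and Myh6 upward from 0.42. The median over the 9 members was 0.99 and that over all genes tested 0.021.

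The Myl7 value moved little when a mouse was left out, but its call needed both Tg mice. Without Tg1 its log2 fold change was 2.99 (adjusted p = 0.326 by edgeR) and without Tg2 it was 2.92 (adjusted p = 0.112 by edgeR). In both of these fits 0 genes were called, with 2301 and 4664 genes at an unadjusted p under 0.05, which compares with 5941 in all 4 mice. With 2 mice per genotype, p-values measure only the spread between these mice. In these sums, more cardiac cells, more RNA per cell and more free RNA cannot be told apart.

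Other lists of the heart muscle program were read in the same fit. Of 14 other sarcomere and Z-disc genes tested (for example Actn2, Tnnc1 and Mybpc3), 0 passed, and 0 of 12 calcium handling and excitation genes passed, with a median log2 fold change of -0.38. In energy genes of heart muscle 1 of 6 passed: Cox6a2, a muscle form of a cytochrome oxidase subunit, had 39 and 128 UMIs in WT mice and 362 and 688 in Tg mice (log2 fold change 2.41, adjusted p = 0.0463 by edgeR). Atrial genes (5 tested), ventricular genes (3), cardiac transcription factors (5) and pacemaker genes (5) had 0 passing. The median of the energy genes was 2.12, above the median of the members themselves.

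Markers of other cells moved in the same comparison. All 5 red blood cell genes passed, with a median log2 fold change of 3.21. In smooth muscle genes 1 of 8 passed (Myocd, 2.35, adjusted p = 0.0437 by edgeR), a coactivator that cardiac muscle shares. The summed list stood at 15.7 and 14.6 CPM in WT mice against 34.0 and 24.5 in Tg mice. In skeletal muscle genes 1 of 8 passed (Casq1, 2.38, adjusted p = 0.0496 by edgeR), the list standing at 4.05 and 5.23 against 7.53 and 7.34 CPM. Of 4 mesothelial genes 1 passed (Msln, 1.31), and of 9 endothelial genes 0 passed, at 1031 and 824 CPM in WT mice against 980 and 891 in Tg mice. The part of these shifts in the Myl7 difference was not tested.

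**Figure D2:**
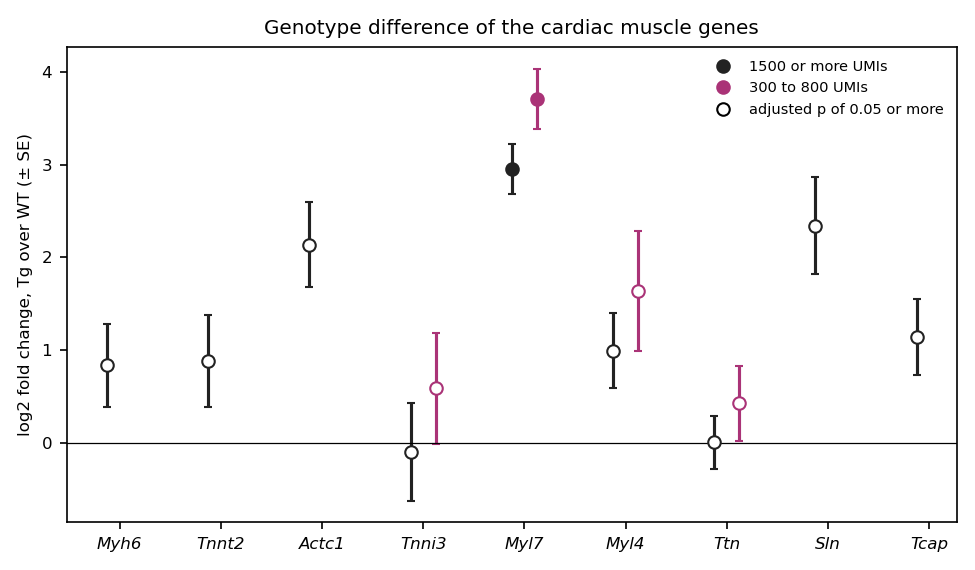
Log2 fold change of Tg over WT for the 9 cardiac muscle genes (edgeR, bars 1 SE, 2 mice per genotype) in barcodes with 1500 or more UMIs (black) and, where tested, in those with 300 to 800 UMIs (purple), with open points for an adjusted p of 0.05 or more. Myl7 lies highest in both, at 2.96 and 3.71, and is the only filled point, and Ttn and Tnni3 lie near 0 in the deeper barcodes.

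Barcodes with several members were then described. Positive barcodes numbered 36 and 29 in WT mice and 215 and 236 in Tg mice. As a share of barcodes with 1500 or more UMIs this was 0.134% and 0.0752% in WT mice and 0.851% and 0.536% in Tg mice. The means were 0.104% ± 0.0413 (SD, n = 2) and 0.694% ± 0.222 (SD, n = 2), a ratio of 6.64. The ratio was 3.66 from 3000 UMIs, 13.3 for 3 or more members and 11.4 with Ttn left out. The groups did not overlap, and the share, as the outcome of the rule itself, is given as a description. No exact permutation test of 2 mice against 2 can go below p = 0.333.

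Most positive barcodes were weakly so. Exactly 2 members were held by 379 of the 516, numbering 32 and 23 in WT mice and 147 and 177 in Tg mice, and the median positive barcode had 2 member UMIs in every mouse. Just outside the rule, exactly 1 member was held by 1082 and 1670 barcodes in WT mice and 2296 and 3674 in Tg mice. At least 3 members were held by 4, 6, 68 and 59 barcodes, and at least 5 by 3, 2, 29 and 21. The excess in Tg mice was thus present at each of these limits. Positive barcodes were deep, with medians of 3742 and 6258 UMIs in WT mice and 3469 and 3926 in Tg mice, and with every barcode thinned to 1500 UMIs the counts fell to 16, 8, 90 and 85.

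Positives of the genotypes differed in how often Ttn or Tnni3 was among their members. A UMI of Ttn or Tnni3 was present in 33 of 36 and 27 of 29 positive barcodes in WT mice, and in 147 of 215 and 145 of 236 in Tg mice. Counting only the other 7 genes, barcodes with at least 2 of them numbered 7 and 8 in WT mice and 121 and 138 in Tg mice, or 0.0260% and 0.0208% against 0.479% and 0.314%. The WT counts thus fell to a small part of their size and the Tg counts by less. The most frequent pairs differed between mice. In Tg mice Myl7 with Ttn was found in 46 and 57 barcodes, Myl7 with Myl4 in 48 and 42 and Tnni3 with Myl7 in 47 and 28. In WT1 Tnni3 with Ttn led with 11 barcodes, against 3 for Myl7 with Ttn, and in WT2 Myl7 with Ttn had 10 and Myl4 with Ttn 8.

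**Figure D3:**
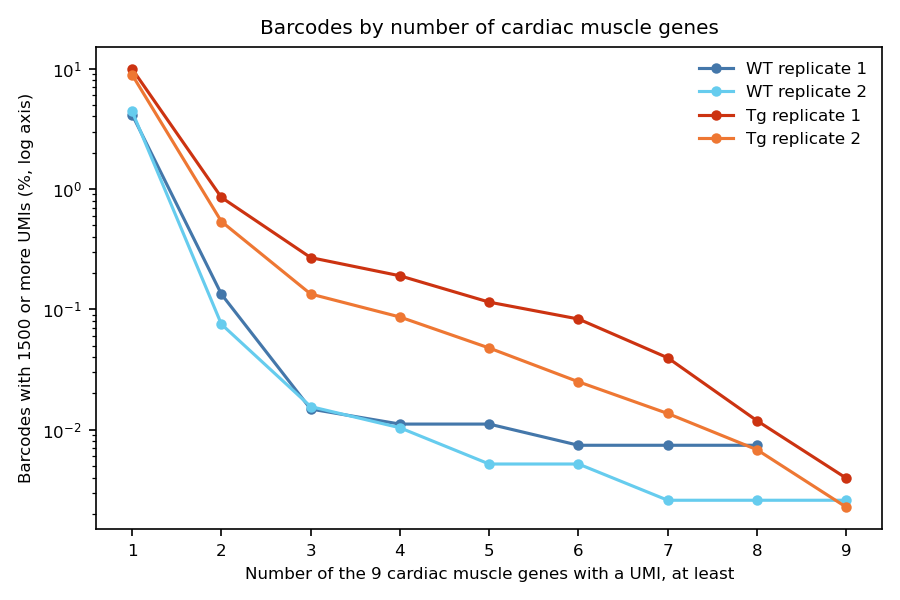
Share of barcodes with 1500 or more UMIs (percent, log axis) that held at least the given number of the 9 members, 1 line per mouse. The Tg mice lie above the WT mice at 2 or more (0.851% and 0.536% against 0.134% and 0.0752%), and the lines meet at 8 and 9 members, where they rest on a few barcodes each.

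The members made up only a small share of the RNA in nearly all positive barcodes. Over 1% of UMIs fell on members in 8 of the 516, a limit that was set after the values were seen. They were 2 in each WT mouse, 3 in Tg1 and 1 in Tg2, or 0.00743%, 0.00519%, 0.0119% and 0.00227% of barcodes with 1500 or more UMIs. The exact 95% binomial intervals of these shares were wide, running from 0.00090% to 0.0268% in WT1 and from 5.8e-05% to 0.0127% in Tg2, and they cover counting error only. With so few barcodes, chosen by the members' own UMIs, the genotypes were not compared by a test.

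The 8 held 4 to 9 of the members each. The first barcode of WT1 had 73 member UMIs of 2918 (2.50%), of which 39 were Ttn, 21 Myh6 and 10 Tnnt2. The second of WT1 had 46 of 3298 (1.39%), led by Ttn with 17 and Tnnt2 with 13. In WT2 one barcode held all 9 members, with 68 UMIs of 2878 (2.36%), among them 16 of Ttn, 14 of Myl4, 8 of Myl7, 8 of Tcap and 5 of Sln. This was the only one of the 8 with every member. The other of WT2 had 74 of 3892 (1.90%), with 41 of Ttn, 15 of Myh6 and 10 of Tnnt2. In Tg1 they had 27 of 1653 (1.63%), 44 of 3255 (1.35%) and 19 of 1532 (1.24%), and in Tg2 27 of 1555 (1.74%), with 12 of Myh6, 10 of Ttn, 3 of Tnnt2 and 2 of Tnni3 as its only 4 members. Myh6 and Tnnt2 were the members found in all 8.

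The 8 fell apart by which members they held and by their mitochondrial UMIs. The 4 barcodes with 0% to 0.386% mitochondrial UMIs held 10 to 41 UMIs of Ttn and 0 or 1 of Myl7. In the 4 with 1.18% to 2.85% mitochondrial UMIs Ttn had 0 to 17 UMIs, and Myl7 had 5 to 8 in 3 of them. With 4 barcodes on each side this is a description only.

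Other heart muscle genes were unevenly spread over the same 8 barcodes. Ryr2, the calcium release channel, had 62 UMIs in 6 of them, Cacna1c 53, Atp2a2 (the calcium pump) 42 and Slc8a1 42. Among sarcomere genes, Actn2 had 14 UMIs in 7 barcodes, Fhod3 14, Ldb3 12, Myoz2 10, Myom1 10 and Tnnc1 9. Together the other sarcomere genes stood at 4826, 6499, 2329 and 3215 CPM in the 8 barcodes by mouse (WT1, WT2, Tg1, Tg2), against 80.5, 52.7, 73.6 and 58.2 in barcodes with 0 or 1 member. These genes were no part of the rule, and their summed level was over 30 times higher in each mouse, but single barcodes differed widely. They had 22 and 8 UMIs in the barcodes of WT1, 9 and 35 in those of WT2, 5 in that of Tg2, and 3, 12 and 0 in those of Tg1, so that 1 barcode of Tg1 had none. Of the calcium and excitation genes, 53 UMIs lay in the first barcode of WT1 and 98 in 1 of WT2, against 2 to 36 in the other 6.

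Chamber genes were unevenly seen. The mainly atrial members Myl7, Myl4 and Sln, which were part of the rule, had 20, 28 and 7 UMIs in the 8 barcodes. Kcnj3, an atrial potassium channel subunit, had 20 UMIs in 3 of the 8 barcodes. Of the other atrial genes, Nr2f2 had 5 UMIs in 2 barcodes, and Gja5 and Kcnj5 had 1 each. The cardiac transcription factors Mef2c, Tbx5 and Gata4 had 8, 7 and 2. The atrial genes Nppa, Bmp10 and Dkk3, the ventricular genes Myl2, Myl3 and Irx4, and the pacemaker channel Hcn4 had 0 UMIs in all 8, while the ventricular genes Myh7 and Mylk3 had 2 and 3. Smooth muscle actin Acta2, Myh11, Tagln and Cnn1 and the skeletal actin Acta1 also had 0. Myocd, a coactivator shared by cardiac and smooth muscle, had 8 UMIs in 3 barcodes, and the muscle creatine kinase Ckm had 3 UMIs. Of the 8 genes of the smooth muscle list, Synpo2 had 2 UMIs in 2 barcodes beside Myocd, and the other 6 had 0.

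Another 48 barcodes held 5 or more members at 1% of UMIs or less. They had a median of 6488 UMIs, a median of 10 member UMIs and a median share of 0.180%. Other sarcomere genes were fewer there, with a median of 2 of 15 against 6.5 in the 8 barcodes, while endothelial genes had a median of 6 of 9 and red blood cell genes 4 of 5. Club secretory genes had a median of 5 of 5 in both sets. Of all 55 barcodes with 5 or more members, 81.8% held at least 2 alveolar type 1 genes and 80% at least 2 fibroblast genes. The 8 barcodes were shallower than the 48, with a median of 2898 UMIs. Of the 48, 1 came from WT1, 0 from WT2, 26 from Tg1 and 21 from Tg2, so nearly all came from the libraries with more red blood cell RNA, and they were deeper than the typical positive barcode. The part of either in these counts was not tested.

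**Figure D4:**
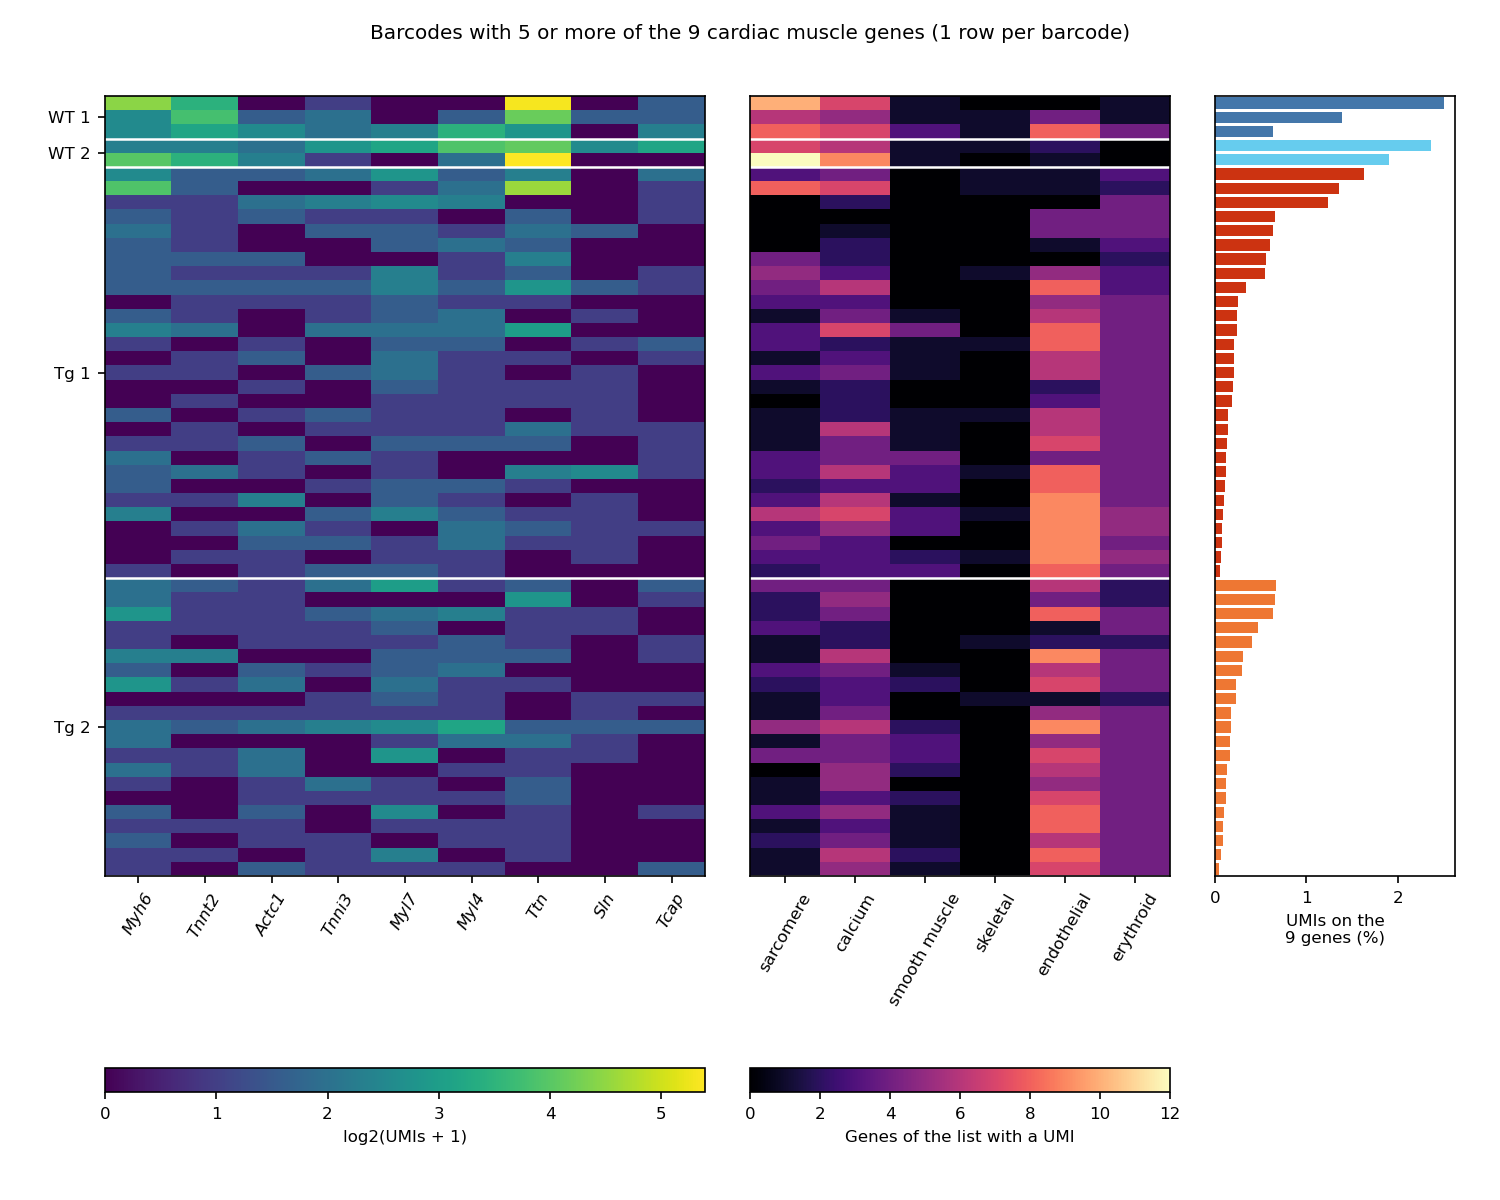
Each of the 55 barcodes with 5 or more of the 9 members is 1 line of the picture, ordered by mouse and then by the share of its UMIs on members, with member UMIs as log2(UMIs + 1) at left, the number of genes with a UMI in 6 marker lists in the middle and the share of UMIs on members (percent) as bars at right. Barcodes over 1% lie at the top of WT1, WT2 and Tg1 with few endothelial genes, and the other 48 carry at most 0.670%, most with several endothelial genes.

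The RNA that surrounded the members differed with the share they took. In positive barcodes with at most 1% of UMIs on members, other sarcomere genes stood at 223 and 58.2 CPM in WT mice and 184 and 135 in Tg mice, so that WT2 was close to its barcodes with 0 or 1 member (52.7). Energy genes of heart muscle stood there at 93.5 and 84.4 in Tg mice against 13.6 and 11.0 in barcodes with 0 or 1 member. Endothelial genes stood at 1915 and 1262 in Tg mice against 967 and 888. In WT mice endothelial genes were lower, at 624 and 685 against 1033 and 824, and ciliated genes stood at 4156 and 340 against 736 and 302. The weak positives of Tg mice thus carried more endothelial UMIs than the other barcodes of the same mice, and those of WT mice fewer.

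**Figure D5:**
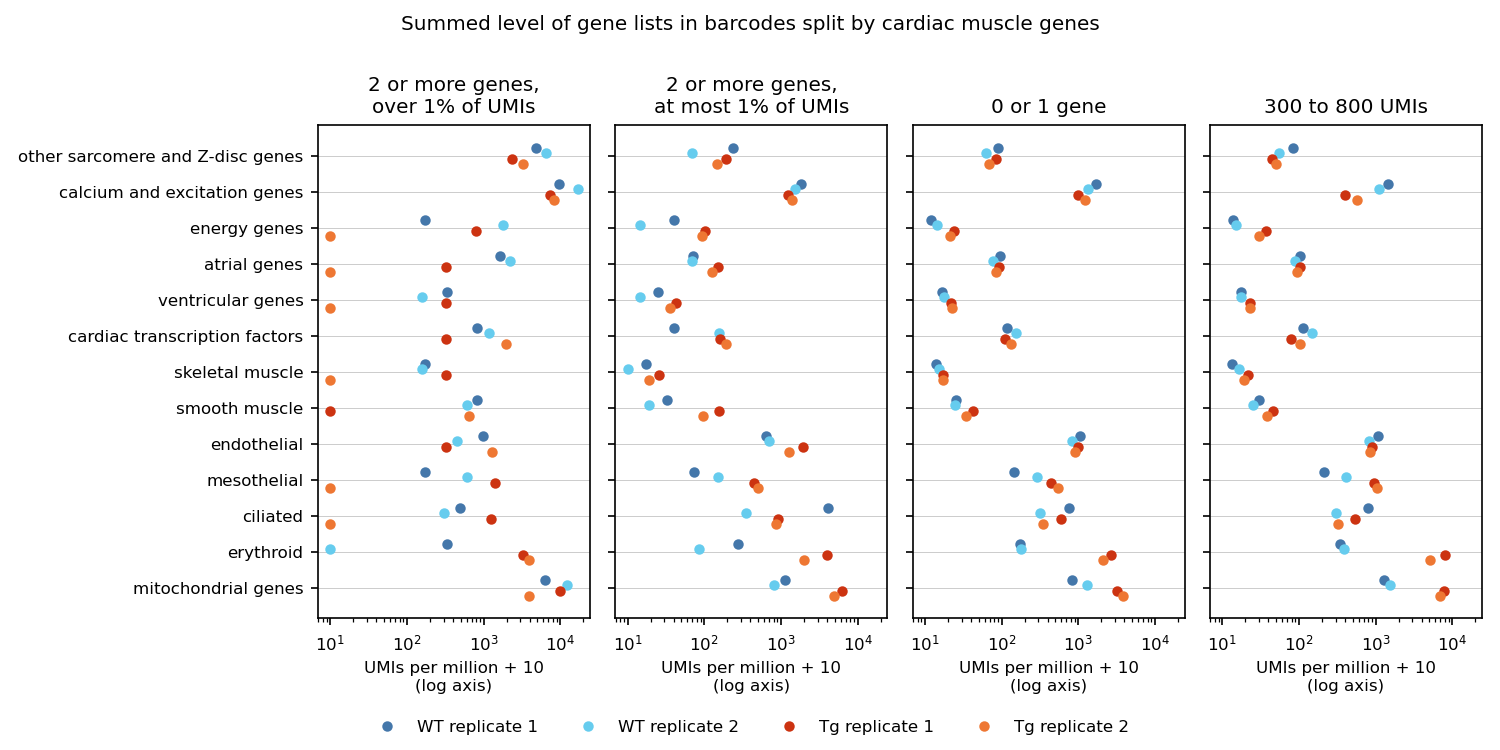
Summed level of each marker list as CPM + 10 (log axis), 1 point per mouse, in positive barcodes with over 1% of UMIs on members, in positive barcodes with at most 1%, in barcodes with 0 or 1 member and in barcodes with 300 to 800 UMIs. Other sarcomere genes lie highest in the first panel (2329 to 6499 CPM) and erythroid and mitochondrial genes are higher in Tg mice than in WT mice in the last 3 panels.

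The lineage of each barcode was read from 3 or more markers of a list above their level in barcodes with 300 to 800 UMIs of the same mouse. Each barcode was given to 1 list at most, the list furthest above that level. As that level differed between mice, set sizes and shares are not directly comparable between mice. Barcodes with alveolar type 2 markers numbered 979 and 678 in WT mice and 37 and 9 in Tg mice. Yet 0 of the 7 genes of that list passed in the genotype test, with a median log2 fold change of 0.17. Barcodes with endothelial markers numbered 837 and 785 in WT mice and 1895 and 2248 in Tg mice. Of these, 0 and 1 were positive in WT mice and 59 and 32 in Tg mice, or 3.11% and 1.42%, and a count of 0 in 837 allows a share of up to 0.358%. Barcodes with no lineage numbered 22648 and 33457 in WT mice and 18947 and 36756 in Tg mice, of which 20 and 17 were positive in WT mice and 101 and 163 in Tg mice (0.533% and 0.443%). The excess in Tg mice was present with and without endothelial markers. Median depths were 2820 and 3537 UMIs in WT mice and 2602 and 3238 in Tg mice with endothelial markers, and 1787, 1912, 2382 and 2342 without a lineage.

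Myl7 was not limited to barcodes with endothelial markers. In barcodes with endothelial markers Myl7 stood at 2.34 and 1.35 CPM in WT mice and at 19.4 and 16.3 in Tg mice. In barcodes with alveolar type 1 markers, epithelial cells not known to use this gene, it stood at 0.771 and 1.12 against 7.42 and 8.25, and without a lineage at 1.51 and 2.20 against 12.5 and 14.1. These 3 sets had more Myl7 in both Tg mice, which did not hold in small sets such as pericyte and B cell markers, where WT1 (8.38 and 10.1 CPM, from 1 UMI each) exceeded 1 of the Tg mice. Barcodes with mesothelial markers held 0 and 1 UMI in 51 and 82 barcodes of WT mice and 32 and 25 UMIs in 103 and 89 barcodes of Tg mice (61.3 and 51.7 CPM). Higher levels were found only in sets of 9 to 20 barcodes, namely 254 CPM with club secretory markers in Tg1 (11 UMIs) and 105 CPM with alveolar type 2 markers in Tg2 (3 UMIs).

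Tnni3 followed ciliated cells. In barcodes with ciliated markers it stood at 24.8 and 10.6 CPM in WT mice and 20.6 and 11.1 in Tg mice, against 4.57, 2.25, 3.83 and 2.24 in the other barcodes. A UMI of the overlapping ciliary gene Dnaaf3 was present in 45% and 40.7% of the ciliated barcodes with Tnni3 in WT mice and in 76.8% and 46.8% in Tg mice. Among all ciliated barcodes, with or without Tnni3, Dnaaf3 was present in 32.0% and 29.7% in WT mice and in 65.5% and 36.1% in Tg mice, so the shares beside Tnni3 were only somewhat above those of ciliated barcodes in general. By the lineage call, 10 of the 36 positive barcodes in WT1 were ciliated, against 1 of 29 in WT2, 18 of 215 in Tg1 and 13 of 236 in Tg2. How Tnni3 and Dnaaf3 reads were divided could not be seen from the counts, so Tnni3 in ciliated barcodes is uncertain as troponin.

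Few barcodes were given to smooth or skeletal muscle by the lineage call. Barcodes with smooth muscle markers numbered 6, 1, 12 and 9, of which 0, 0, 1 and 2 were positive (8.33% and 22.2% in the Tg mice). Other small sets also had high shares in Tg1, with 6 of 66 for pericyte markers, 6 of 37 for alveolar type 2 markers and 4 of 20 for club secretory markers, against 0 of 27, 3 of 979 and 0 of 42 in WT1. In Tg2 the same sets had 1 of 82, 1 of 9 and 2 of 11, so the pericyte share was not high in both Tg mice. The sets were called against each mouse's own shallow barcodes, so these shares compare barcodes that were selected differently. A single barcode, in WT2, had skeletal muscle markers, and its only member was Ttn, with 3 UMIs of 1793. By the number of genes alone, 434 of 134745 barcodes with 1500 or more UMIs held at least 2 smooth muscle genes, and 22 held at least 2 skeletal muscle genes. At least 2 smooth muscle genes were held by 9.30% of positive barcodes, against 0.288% of those with 0 or 1 member. For skeletal muscle genes these shares were 0% and 0.0164%. These shares pool all mice, and the positive barcodes numbered 36 and 29 in WT mice against 215 and 236 in Tg mice. Smooth muscle genes as a list were themselves higher in Tg mice. Positive barcodes were also deeper, and the part of depth or of the mix of mice in these shares was not tested.

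The genes most like the members were ranked by log2 of their CPM in positive barcodes over that in barcodes with 0 or 1 member. To both levels 10 CPM was added first, and the lowest of the 4 mice was taken. Ranked were genes with at least 20 UMIs in positive barcodes and at least 1 in each mouse. The added 10 CPM shrinks the values of genes at low levels, so they are not plain fold changes. Among 10669 genes the members took ranks 1 to 8 and 12, as the rule made them do, and the median gene had -0.39. The highest other genes were Fgf12 (1.35), Ctnna3 (1.33) and Ryr2 (1.13), of which Ctnna3 encodes the alpha catenin of cardiac cell junctions. The cardiac genes Tnnc1 (0.92) and Trdn (0.82) were also among the first 15. In their lowest mouse, Tnnc1 stood at 10.5 against 0.845 CPM (Tg2) and Trdn at 8.71 against 0.608 CPM (Tg1). The first 15 also held Dnah2 (1.01), Dnah12 (0.96), Armc4 (0.95), Spag16 (0.93), Cfap54 (0.81) and Dnah10 (0.80), which are known as genes of the ciliary axoneme. They were not in the fixed ciliated list, and their share was not tested against other genes.

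Shallow barcodes, which can hold free RNA and small or poor nuclei, were read last. Their band lay just under the densest part of the distribution in Tg1 (846 to 949 UMIs) and further below it in the other mice. Barcodes with 300 to 800 UMIs numbered 7688 and 10371 in WT mice and 18387 and 2732 in Tg mice, and the 9 genes together stood there at 19.4 and 12.5 CPM against 59.9 and 45.7. Barcodes with at least 2 members numbered 0 and 0 in WT mice, which allows shares of up to 0.0390% and 0.0289%, and 7 and 2 in Tg mice. The summed level was thus as high in shallow barcodes of Tg mice as in deep ones, or higher. Red blood cell genes stood there at 331 and 374 CPM in WT mice and at 8142 and 5172 in Tg mice.

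Myl7 was higher in the shallow barcodes of Tg mice than in those of WT mice. It had 17 UMIs in each WT mouse and 369 and 59 in the Tg mice, or 3.06 and 2.38 against 29.3 and 30.3 CPM. Both Tg mice lay far above both WT mice. In the edgeR quasi-likelihood test over 15180 genes, 25.6% of all genes were called (14.5% higher and 11% lower in Tg mice), so that many genes differed in this set. Of the 9 members 4 had enough counts to be tested and 1 passed, again Myl7, with a log2 fold change of 3.71 (SE 0.33, adjusted p = 0.0178 by edgeR). Myl4 (1.63, adjusted p = 0.104 by edgeR), Tnni3 (0.59) and Ttn (0.42) did not pass, Myl4 running from 0.29 to 2.22 with 1 mouse left out, and the median over these 4 was 1.11 against 0.039 over all genes.

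The other 5 members had few UMIs in shallow barcodes. Sln had 0 and 0 UMIs in WT mice and 25 and 1 in Tg mice, and Actc1 had 1 and 2 against 30 and 0. Myh6 had 4, 1, 19 and 2, Tnnt2 had 4, 2, 27 and 2, and Tcap had 6, 2, 33 and 3. The high count lay in Tg1 in each case, the mouse with most shallow barcodes. Without Tg1, in a fit that holds 1 Tg mouse, the log2 fold change of Myl7 stood at 3.57 in this set.

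Other muscle lists were mixed in shallow barcodes. Of the energy genes 3 of 4 tested passed, all higher in Tg mice: Cox6a2 (log2 fold change 3.73), Cox7a1 (3.31) and Cox8b (3.23). Calcium and excitation genes had 0 of 9 higher and 4 lower in Tg mice, namely Cacna1c (-1.90), Kcnq1 (-1.58), Slc8a1 (-1.41) and Ryr2 (-1.23). Of 6 other sarcomere genes 0 passed. Of 3 atrial genes 1 passed, higher in Tg mice, while ventricular genes (2 tested), cardiac transcription factors (3) and pacemaker genes (3) had 0 passing. Outside muscle, 3 of 4 mesothelial genes passed, all higher in Tg mice, with a median of 2.01. Smooth muscle actin Acta2 and Tagln passed among 6 smooth muscle genes, the troponin Tnni2 of fast skeletal muscle among 2 skeletal genes, and all 5 red blood cell genes, with a median of 3.85. The remaining 5 calcium and excitation genes and 1 energy gene did not pass.

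Levels in shallow and deep barcodes of the same mice were compared in 1 edgeR quasi-likelihood fit with mouse as a term, over 18855 genes of which 31.5% were called (18.3% higher and 13.1% lower in shallow barcodes). Of the 9 members, 1 was higher and 1 lower in shallow barcodes. Myl7 was higher, by 1.15 on the log2 scale (SE 0.21, adjusted p = 0.00711 by edgeR), and Ttn lower, by -0.89 (SE 0.18, adjusted p = 0.00965 by edgeR). The remaining 7 did not pass, and the median was 0.27 for the members and -0.026 for all genes. Without Tg2 0 genes were called, with 5406 genes at an unadjusted p under 0.05, and the values were 1.10 (adjusted p = 0.0872 by edgeR) and -0.93 (adjusted p = 0.0829 by edgeR). The share of members called was thus no larger than that of all genes, and the 2 that passed had opposite signs.

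The composition of member UMIs shifted in the same way. Ttn made up 38.4% and 57.0% of member UMIs in WT barcodes with 0 or 1 member and 27.7% and 25.8% in Tg barcodes. Myl7 made up 7.52% and 9.75% there in WT mice and 32.1% and 45.0% in Tg mice, and in shallow barcodes 15.7% and 19.1% against 48.9% and 66.3%. In barcodes with 5 or more members Myl7 took a smaller part, at 2.44% and 5.63% against 16.6% and 20.2%, and Myh6 took 13.4% to 18.9% there against 2.57% to 3.39% in barcodes with 0 or 1 member. Barcodes with many members and those with few thus differed in which members they held, in all 4 mice, and the rule, which counts different members, bears on that composition.

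Whether the genotype difference itself differed between shallow and deep barcodes was tested as an interaction over 20117 genes, of which 26.2% were called. Of the 9 members 0 passed by edgeR and 0 by DESeq2. At an unadjusted p under 0.05 there were 2 by edgeR, Myl7 with 0.73 on the log2 scale (adjusted p = 0.104 by edgeR) and Sln, which was at 0 in shallow WT barcodes. At the same limit lay 7504 of the 20117 genes, a larger share than among the members. With 1 mouse left out the value for Myl7 ran from 0.31 (without WT2, adjusted p = 0.777 by edgeR) to 0.95 (without WT1, adjusted p = 0.199 by edgeR). Of these 4 fits it passed only without Tg2, at 0.88 (adjusted p = 0.0103 by edgeR), and was 0.43 without Tg1.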

How the data were processed

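Nuclei of 4 mouse lungs were profiled with 10x Genomics 3′ chemistry. The authors deposited a matrix of raw UMI counts per gene and barcode for each mouse, made with Cell Ranger 6.1.1 with intron reads included on mm10. No map from barcodes to cell types was used here. Their filtering of low-quality nuclei and multiplets and their removal of free RNA are not in these counts. Counts were read as deposited. Barcodes with 1500 or more UMIs and with 300 to 800 UMIs were used, no doublets were removed, and levels (CPM) are UMIs per 1000000 UMIs of the same barcodes. Counts were summed per mouse and tested with edgeR 4.0.16 (quasi-likelihood, TMM, filterByExpr with a minimum count of 10) in R 4.3.3, with DESeq2 1.42.0 as an alternative. Adjusted p-values are Benjamini-Hochberg values over all genes tested, with a threshold of 0.05. Other steps used Python 3.11.15 with SciPy 1.17.1. A test on simulated data changed 200 genes by 2-fold or by 4-fold. For the genotype difference in barcodes with 1500 or more UMIs, 71% and 97% of them were recovered, but only 13% and 68% for the interaction of genotype and depth. The simulation gave every gene the same spread between mice. These rates therefore need not hold for the real counts.

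Lineages were called from 3 or more markers of a fixed list whose summed UMIs lay at least 3 standard errors above the free-RNA level. The named genes are the 9 members, the listed genes of other muscle and lung lineages and the 15 genes most like the members. The members and lists were chosen with earlier results of these data known. The replicate numbers shared by the genotypes do not come with a stated pairing. Alternatives were other UMI limits, other tests and filters, a replicate block and leaving out each mouse. Barcodes with over 1% of UMIs on members and counts without Ttn and Tnni3 were added after the data were seen.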

Additional observations from a re-analysis of the deposited data

Results flagged for a closer look

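Barcodes with 801 to 1499 UMIs belonged to neither of the depth classes compared, and cardiac muscle genes were seen together there too. At least 2 of the 9 genes were held by 11 of 43269 and 7 of 22372 such barcodes in WT mice (0.0254% and 0.0313%), and by 66 of 36875 in Tg1 (0.179%) and 38 of 29296 in Tg2 (0.130%). Both Tg shares exceeded both WT shares. The members together stood at 19.2 and 15.7 CPM in WT mice and 61.2 and 45.5 in Tg mice. The difference was not tested.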

How the results depend on the processing

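With each mouse left out in turn, genes called for the genotype difference ran from 0 (without Tg1 or Tg2) through 1623 (without WT1) to 2940 (without WT2) in barcodes with 1500 or more UMIs (members called, 0 to 2) and from 0 (without Tg1; 814 without Tg2) to 4802 in those with 300 to 800 (members, 0 to 5). They ran from 0 to 6562 for the depth difference (members, 0 to 2) and from 1276 to 8332 for the interaction (members, 0 to 1), and the share of positive barcodes differed by 0.432 to 0.746 percentage points. Tnni3 ranged from -0.66 to 0.60 and Ttn from -0.27 to 0.23 in deep barcodes (Tnni3 0.60 without WT1 and 0.30 without Tg2, Ttn -0.21 without WT1 and -0.27 without Tg1), and Tnni3 from -0.11 to 1.48 in shallow ones. In deep barcodes, genes called were 858 with 1 member as reported, and 3279 with DESeq2, 2525 without the filter on low counts and 1702 from 1000 UMIs, each of these 3 with 3 members. Ttn was -0.035 with DESeq2, -0.19 from 3000 UMIs and -0.071 without positive barcodes, and Tnni3 was 0.11 from 3000 UMIs. In shallow barcodes 6 members were called without the filter, among 5742 of 23412 genes. There 70 genes of 226 tested were called at 100 to 300 UMIs and 194 of 4702 at 10 to 100, with no member tested in either. Against 100 to 300 UMIs the depth difference called 296 genes and 0 members, with Myl7 turned to -11.52 (SE 9.93), which is no estimate of a change, since the 9 members together had 0, 0, 1 and 1 UMIs in that band. Of the single-gene values 119 kept their direction and side of the threshold, 13 came under it, 6 went above it and 11 changed sign.

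A replicate block called 2692 genes and 3 members in deep barcodes (Ttn -0.0035) and 4685 genes and 2 members in shallow ones. Deviations of same-numbered mice correlated at 0.253 and 0.126, over only 2 pairs, so the numbers were not taken as pairing.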

Other observations

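A few barcodes held many UMIs of a single member. In WT2, 1 barcode of 10425 UMIs held 19 UMIs of Ttn and another of 18236 held 18, with 0 other sarcomere and Z-disc genes in either and 2 and 4 calcium and excitation genes. Ttn stood at 16.9 and 25.6 CPM in the 979 and 678 barcodes with alveolar type 2 markers in WT mice, against 7.42 and 10.5 in barcodes without a lineage. Tg mice had 37 and 9 barcodes with alveolar type 2 markers, too few to compare. In Tg2, 1 barcode of 15224 UMIs held 10 UMIs of Myl7 with UMIs of 4 of 4 mesothelial genes, 1 other sarcomere gene and 3 cardiac transcription factors.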
